A study of Mus musculus with 32 samples.

Results

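The 8 genes described here encode the core proteins that fuse and divide mitochondria: Mfn1, Mfn2, Opa1, Oma1, Yme1l1, Dnm1l, Fis1 and Mff. They were chosen by name, as the rows of the deposited count table whose Ensembl identifier carries 1 of these symbols, and all 8 were found among the 50686 genes of the table. Every member passed the filter on low counts, which left 15505 genes to test. The table holds interscapular brown adipose tissue (iBAT), a thermogenic depot, from male C57BL/6J mice of 10 weeks. All mice were chow-fed, not fasted and kept in mild cold under a cycle with equal hours of light and dark, and the groups differ in time of day and, along with it, in the sequencing lane. Time is Zeitgeber time (ZT), in hours from lights on, with ZT0 as the onset of the light (inactive) phase and ZT12 as that of the dark (active) phase. Mice were sampled every 3 h at 8 time points, 4 per time point, each mouse once.

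Mitochondria continually join and split. In fusion, the mitofusins MFN1 and MFN2, large GTPases of the outer membrane, tether neighbouring mitochondria, and OPA1, a related GTPase, joins the inner membranes and keeps the cristae narrow. The inner membrane proteases OMA1 and YME1L1 cut OPA1 into short forms, OMA1 mainly under stress and YME1L1 constitutively. In fission, receptors of the outer membrane such as MFF recruit the dynamin DRP1, the product of Dnm1l, which constricts the organelle, and FIS1 is a tail-anchored outer membrane protein linked to the same process. Brown adipocytes are packed with mitochondria, and adrenergic stimulation is known to drive fragmentation through phosphorylation of DRP1, a step that transcript counts do not measure.

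The genes lie at separate loci of the mouse GRCm38 assembly. Mfn1 is at chr3:32529465-32579239 on the plus strand, Mfn2 at chr4:147873599-147904704 on the minus strand and Opa1 at chr16:29579334-29654884 on the plus strand. Oma1 is at chr4:103313812-103371868 and Yme1l1 at chr2:23156369-23199260, both on the plus strand. Dnm1l is at chr16:16312230-16358959 on the minus strand, Fis1 at chr5:136953275-136966234 and Mff at chr1:82724890-82752394, the last pair on the plus strand. Mfn1 and Mfn2 share no stretch of 100 bases in their transcripts, so reads of that length can tell the mitofusins apart. In 6 of the 8 genes no such stretch occurred in any other annotated transcript. Of the stretches of Dnm1l, 2.17% did, in an antisense gene not analysed here and in the pseudogene Gm13719, which held 0 to 10 counts per library. Of those of Mff, 0.918% lay in the antisense transcript C430014B12Rik, with 3 to 23 counts per library.

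Proximal promoters of the members that differed between ZT12 and ZT0, together with that of Opa1, are shown because the results below turn on time of day and because the proteins act in mitochondria. Each line gives the bases before the first annotated start of the gene, 5′ to 3′ on the strand of the gene, with RefSeq as the source (GRCm38.p6), at chr3:32529232-32529464 (plus), chr4:147904705-147904948 (minus), chr2:23156255-23156368 (plus) and chr16:29579084-29579333 (plus). Capitals mark matches to CCGGAAG, a sequence bound by the ETS factor GABP, and to GCATGCGC, the core of the site of NRF1. GABP and NRF1 are known regulators of nuclear genes for mitochondrial proteins.
Mfn1: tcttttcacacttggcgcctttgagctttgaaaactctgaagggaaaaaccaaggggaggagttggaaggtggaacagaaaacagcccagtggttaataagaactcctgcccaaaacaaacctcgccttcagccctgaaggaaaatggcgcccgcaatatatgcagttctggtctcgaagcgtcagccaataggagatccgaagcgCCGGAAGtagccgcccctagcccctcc
Mfn2: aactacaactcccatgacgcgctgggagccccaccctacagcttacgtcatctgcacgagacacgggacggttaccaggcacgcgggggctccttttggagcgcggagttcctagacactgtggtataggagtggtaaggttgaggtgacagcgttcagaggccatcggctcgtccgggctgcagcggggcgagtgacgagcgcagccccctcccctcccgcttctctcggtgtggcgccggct
Yme1l1: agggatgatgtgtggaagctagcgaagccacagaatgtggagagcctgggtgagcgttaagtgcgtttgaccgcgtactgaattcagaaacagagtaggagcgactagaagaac
Opa1: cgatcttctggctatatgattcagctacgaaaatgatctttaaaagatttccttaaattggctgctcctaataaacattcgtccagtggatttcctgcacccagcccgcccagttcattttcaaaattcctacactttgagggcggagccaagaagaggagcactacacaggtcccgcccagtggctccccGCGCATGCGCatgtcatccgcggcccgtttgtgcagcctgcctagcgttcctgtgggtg

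The search covered both strands of the 300 bases from 250 before to 50 after each RefSeq start, for the member entry nearest the annotated gene start. The clock-linked sequences were in none of the 8 windows. These were the E-box CACGTG, bound by CLOCK and BMAL1 and present in 7.15% of all 32851 promoters, the D-box TTATGTAA, bound by DBP and present in 0.938%, and AGGTCA, the half-site read by the ROR and REV-ERB receptors and present in 16.3%. CCGGAAG was found in 3 members, Mfn1, Yme1l1 and Fis1, and in 8.86% of all promoters. Yme1l1 held 3 matches, which start 73 and 19 bases before and 3 bases after its RefSeq start, downstream of the part printed. GCATGCGC was found in Opa1 alone of the members, where the matches on the 2 strands overlap, and in 2.71% of all promoters. A match describes letters and not binding, and nothing follows from the absence of a match in windows of this size.

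Levels are given as CPM, the reads of a gene relative to all reads of its library, after TMM correction for differences in composition between libraries. Library totals ran from 16300770 to 18254659 counts with a median of 17418661. The tissue label fits the markers: all 12 brown adipocyte markers had counts at every time point, and Ucp1, the uncoupling protein of brown fat, ran from 955 to 4318 CPM. The time labels were checked on 5 clock genes, which all had a 24 h cosine, with fitted peaks at ZT23.2 for Arntl, ZT0.798 for Npas2, ZT7.22 for Nr1d1, ZT10.1 for Dbp and ZT14.3 for Per2. In 15 of the 32 libraries the 10 skeletal muscle markers summed to over 1000 CPM (2.39 to 6258 CPM over all libraries), with 3 such libraries at ZT15 and 1 or 2 at each other time point. All 10 had counts at every time point. Per the labels, lane 2 carried ZT0, ZT3 and ZT6, lane 3 carried ZT9, ZT12 and ZT15, and lane 4 carried ZT18 and ZT21, so time and lane cannot be told apart between lanes. In whole tissue, fewer cells of a type and less RNA per cell cannot be told apart either.

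Across the day the transcripts of all 8 members were present in every library. Over the 32 mice, the lowest count was 162 for Oma1 and the highest 8185 for Mfn2. To compare genes, CPM was divided by the length of all annotated exons in kilobases. On that scale the mean levels were 77.4 ± 6.86 for Mfn2, 34.2 ± 3.19 for Opa1, 22.3 ± 1.60 for Dnm1l and 19.6 ± 1.82 for Fis1 (CPM per kb, SD, n = 32). They were 14.1 ± 0.948 for Mfn1, 13.3 ± 1.20 for Yme1l1, 9.46 ± 0.751 for Mff and 5.58 ± 0.6005 for Oma1. Mfn2 stood above the others, and its lowest library (57.1 CPM per kb) exceeded the highest of Opa1 (39.6). Opa1 in turn did not overlap with Dnm1l, and Mff did not overlap with Oma1. The ranges of the other 4 pairs of neighbours overlapped between libraries. Within the same library, however, Fis1 was above Mfn1 and Yme1l1 above Mff in 32 of 32, and Dnm1l was above Fis1 in 29 of 32. Mfn1 was above Yme1l1 in 19 of 32 libraries, so the order of this pair is not separated by the spread over mice. The length of Mff joins the exons of 16 annotated transcripts, and its level per kb depends on that choice. By mean CPM, without length, Mfn2 lay above 98.5% of the tested genes and Oma1 above 48.4%.

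**Figure D1:**
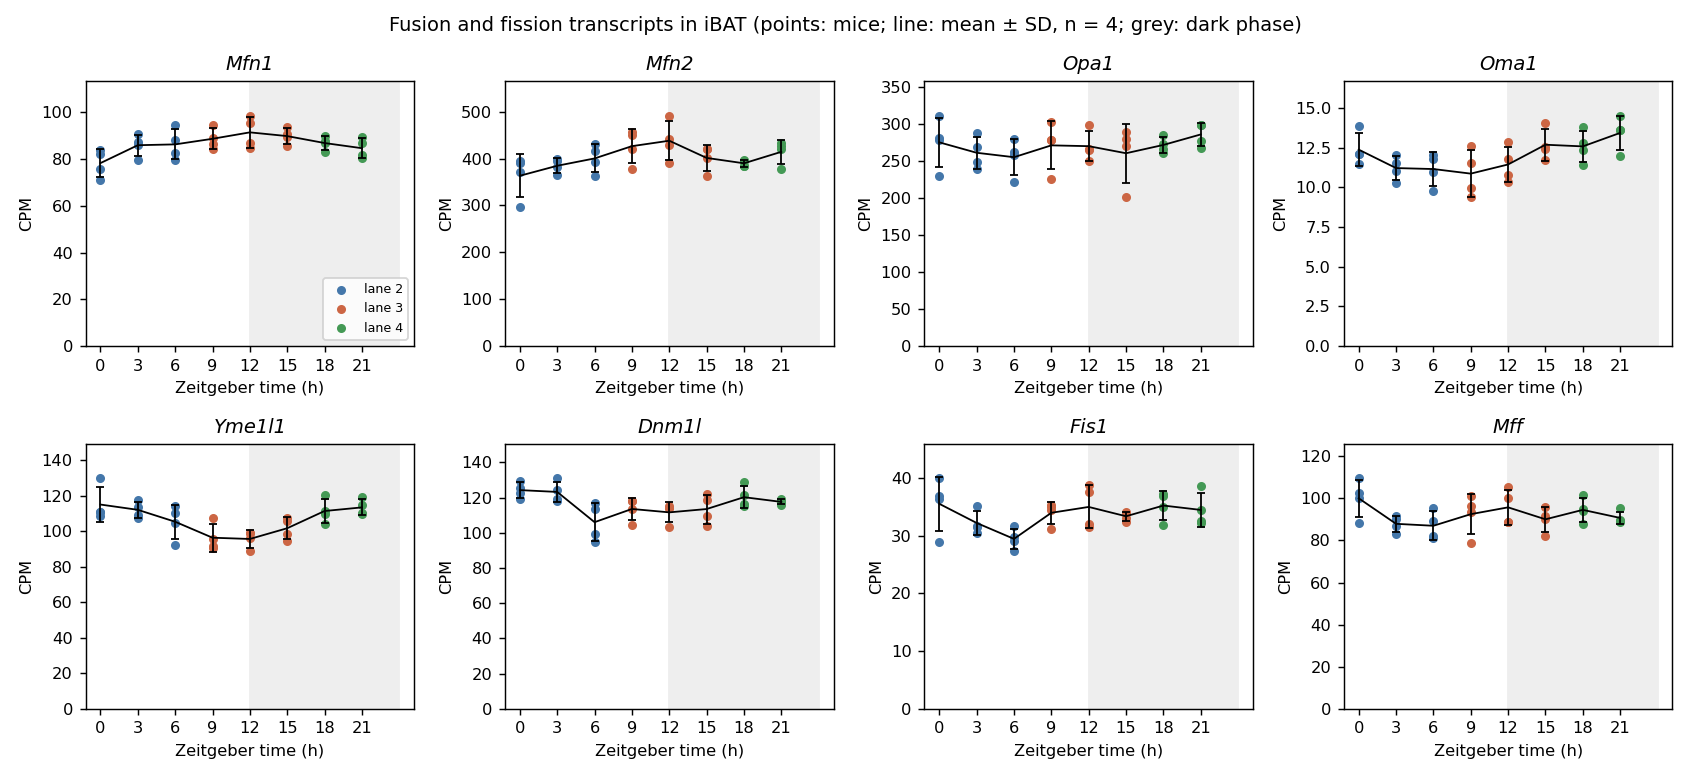
CPM (vertical axis, from 0) of the 8 genes against Zeitgeber time in h; points are mice coloured by sequencing lane, the line joins means ± SD (n = 4) and grey is the dark phase. The time-point means of each gene stay within 1.12-fold (Opa1) to 1.24-fold (Oma1) of each other, with Mfn1 and Mfn2 highest at ZT12 and Yme1l1 lowest there.

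The first question was whether these transcripts oscillate. By JTK, the rank test for rhythms used in the methods of the study (exact null distribution, n = 32 mice), 4 of the 8 members had P under 0.05, beside 36.4% of all tested genes: Mfn1 (P = 0.0209), Oma1 (P = 0.0210), Yme1l1 (P = 7.89e-05) and Dnm1l (P = 0.0162). This P is the smallest exact value over 15 cosine templates, multiplied by 15 and capped at 1. After Benjamini-Hochberg (BH) adjustment over all genes, Yme1l1 alone passed (adjusted P = 0.00106), beside 27.1% of all genes. The JTK P was 0.179 for Mfn2 and for Fis1, and at the cap of 1 for Opa1 and for Mff. With scaling by library size alone JTK also called 4, but with Mfn2 (exact P = 0.00117) in place of Dnm1l (exact P = 0.0565), beside 34.7% of all genes. In edgeR's quasi-likelihood test of a 24 h cosine, the same 4 genes passed at a BH-adjusted p under 0.05, beside 36.1% of all genes. Without the 15 libraries high in muscle markers, 2 of the 8 passed the cosine test, Oma1 and Yme1l1, where the share of all genes also fell, to 17.8%. The JTK P was then under 0.05 for Oma1 (0.00332), Yme1l1 (0.00347) and Fis1 (0.0408), beside 20.6% of all genes. The share of the members that passed cannot be read as particular to them, since 4 of 8 is near what the whole table gives.

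The swings were small. Amplitudes of the fitted cosine, from mean to peak on log2 CPM, ran from 0.03 (Mff) to 0.14 (Oma1), with a median of 0.08 beside 0.14 over all tested genes, and 50.1% of all tested genes had an amplitude above that of Oma1. From trough to peak this was 1.21-fold for both Oma1 and Yme1l1 and 1.13-fold or less for the other 6. The highest time-point mean exceeded the lowest by a median of 1.19-fold over the members and 1.42-fold over all tested genes. Among mice of the same time point the coefficient of variation ran from 5.72% (Dnm1l) to 9.84% (Opa1). This is an SD, while the folds above span a range, so their sizes cannot be set side by side.

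**Figure D2:**
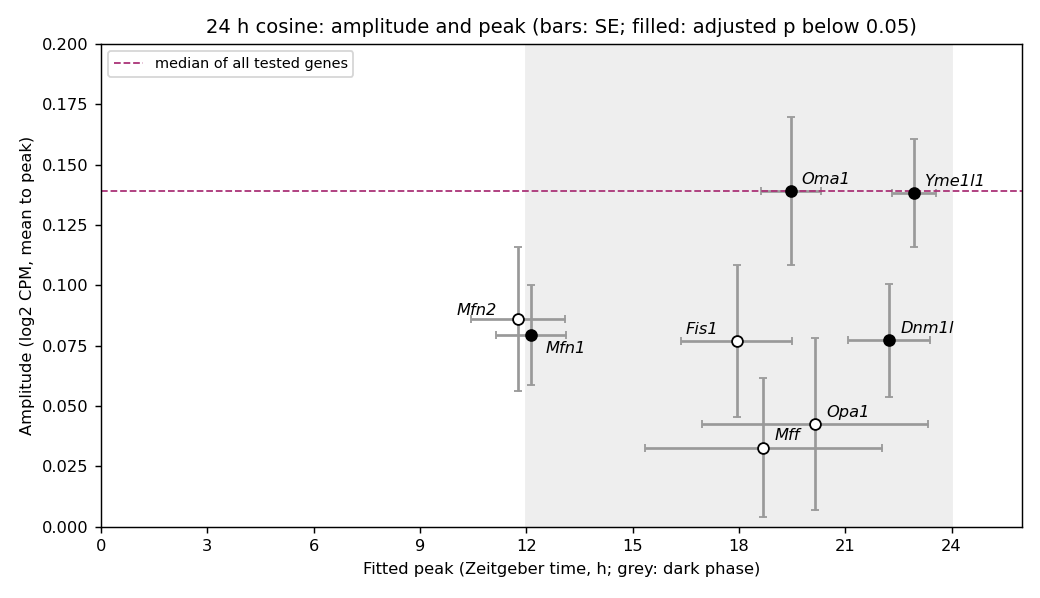
Amplitude of the 24 h cosine (log2 CPM, mean to peak) against fitted peak in Zeitgeber time (h) for the 8 genes, with SE bars; filled points passed edgeR's cosine test, grey is the dark phase and the dashed line is the median amplitude of all tested genes, 0.14. In this fit, which has no lane term, Mfn1 and Mfn2 lie near ZT12, the other 6 between ZT17.9 and ZT22.9, and the points for Oma1 and Yme1l1 lie at the dashed line.

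Among the fusion genes, the mitofusins had fitted peaks at the onset of the dark phase in the fit without lane, ZT12.1 ± 0.996 for Mfn1 and ZT11.8 ± 1.32 for Mfn2 (SE in h). With lane as a term the peaks were ZT11.3 ± 1.64 for Mfn1 and ZT7.18 ± 2.85 for Mfn2. Their amplitudes were 0.08 ± 0.02 and 0.09 ± 0.03 (log2, SE). Mfn1 passed edgeR's cosine test (adjusted p = 0.0210) and Mfn2 did not (adjusted p = 0.0720); whether the 2 genes differ in rhythm was not tested. The mean of Mfn1 went from 78.2 ± 5.89 CPM at ZT0 through 86.2 ± 6.46 at ZT6 to 91.4 ± 6.71 at ZT12, and was 84.6 ± 4.15 at ZT21 (SD, n = 4). Mfn2 had its lowest mean at ZT0 (363 ± 45.7 CPM) and its highest at ZT12 (438 ± 42.0 CPM), with a further 414 ± 25.3 CPM at ZT21. The call on Mfn1 rested on single mice: without replicate 2 of ZT0 its edgeR adjusted p was 0.0535, and without replicate 3 of ZT12 it was 0.0556. That on Mfn2 was gained without replicate 1 of ZT15 (edgeR adjusted p = 0.0376), replicate 1 of ZT21 (0.0469) or replicate 2 of ZT21 (0.0443), and with scaling by library size alone (0.00839). JTK lost Mfn1 in 7 of the 32 runs that each left out 1 mouse, with P up to 0.0971: replicates 2 and 4 of ZT0, 3 of ZT3, 2 and 3 of ZT12, 1 of ZT15 and 3 of ZT21. Without the libraries high in muscle markers, the edgeR adjusted p of Mfn1 was 0.382 and its amplitude 0.07. With the muscle marker level as a covariate its amplitude was 0.08 and the call was kept (edgeR adjusted p = 0.0286).

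Opa1, the GTPase of inner membrane fusion, had the smallest fold between its highest and lowest means of the 8 (1.12-fold), from 256 ± 24.3 CPM at ZT6 to 286 ± 15.7 at ZT21. Its amplitude was 0.04 ± 0.04 (log2, SE), and it passed no test (edgeR adjusted p = 0.5998 for the cosine). Replicate 1 of ZT15 had its lowest value, 202 CPM, where its 3 companions had 271 to 290.1 CPM.

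The 2 proteases that cut OPA1 had the largest amplitudes of the members in the fit without lane. Yme1l1, the constitutive protease, fell through the light phase and rose through the dark phase: its means were 115 ± 9.90 CPM at ZT0, 112 ± 4.55 at ZT3, 105 ± 9.57 at ZT6, 96.4 ± 7.82 at ZT9 and 95.7 ± 4.82 at ZT12. They were 102 ± 6.24 at ZT15, 111 ± 6.63 at ZT18 and 113 ± 4.46 at ZT21 (SD, n = 4). The fitted amplitude was 0.14 ± 0.02 with a peak at ZT22.9 ± 0.617 h (SE, edgeR adjusted p = 0.000219), and the call held without any single mouse (adjusted p up to 0.000618). With lane as a term the cosine of Yme1l1 did not pass (edgeR adjusted p = 0.224). Yme1l1 was also the member that passed edgeR's test of any difference between the 8 time points (adjusted p = 0.00914), 1 of 8 beside 39.8% of all genes. That test did not pass without the libraries high in muscle markers (adjusted p = 0.157), which leaves 17 mice and 9.64% of all genes called.

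Oma1, the stress-activated protease, was lowest at ZT9 (10.9 ± 1.46 CPM) and highest at ZT21 (13.4 ± 1.08 CPM). The 4 mice of ZT9 had 12.6, 9.38, 9.97 and 11.5 CPM, and those of ZT21 had 11.9, 14.5, 13.6 and 13.6 CPM. These groups overlap, since replicate 1 of ZT9 lay above replicate 1 of ZT21. The amplitude was 0.14 ± 0.03 with a peak at ZT19.5 ± 0.845 h (SE, edgeR adjusted p = 0.00472), and it passed without any single mouse (adjusted p up to 0.0115) and without the libraries high in muscle markers (0.0152). On log2 CPM, Oma1 correlated with the summed muscle markers at r = 0.38 and with Ucp1 at r = -0.51 over the 32 libraries, and with the percentage of counts in mitochondrially encoded genes at r = -0.39. For that percentage r was -0.48 for Mff, -0.41 for Opa1, -0.40 for Yme1l1 and for Dnm1l, -0.34 for Fis1, -0.14 for Mfn2 and 0.23 for Mfn1. These are descriptions that share time of day and library, and their part in the results was not tested.

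Of the fission genes, Dnm1l, which encodes the dividing GTPase, had an amplitude of 0.08 ± 0.02 with a peak at ZT22.2 ± 1.16 h (SE, edgeR adjusted p = 0.0447). Its highest means were at ZT0 (124 ± 4.45 CPM) and ZT3 (123 ± 5.86 CPM) and its lowest at ZT6 (106 ± 10.9 CPM). This call sat at the threshold, since leaving out 1 mouse ended it in 14 of 32 cases, with edgeR adjusted p up to 0.0786 (without replicate 1 of ZT0). The call was also lost with DESeq2 size factors (edgeR adjusted p = 0.0580), with library size alone (0.0548), without a filter (0.117) and without the libraries high in muscle markers (0.0529, at an amplitude of 0.14). With the muscle marker level as a covariate the adjusted p was 0.0506 at an unchanged amplitude of 0.08. JTK kept Dnm1l in all 32 cases, but not with library size alone or without the libraries high in muscle markers (exact P = 0.0524). The receptor gene Mff had an amplitude of 0.03 ± 0.03 (edgeR adjusted p = 0.660), with means from 87.0 ± 6.79 CPM at ZT6 to 100.1 ± 8.91 CPM at ZT0. Fis1 had an amplitude of 0.08 ± 0.03 (edgeR adjusted p = 0.146), with means from 29.4 ± 1.80 CPM at ZT6 to 35.5 ± 4.67 CPM at ZT0. All 3 fission genes had their lowest mean at ZT6 and their highest at ZT0, though Fis1 at ZT18 was almost level with ZT0 (35.2 ± 2.52 CPM). Opa1 was also lowest at ZT6 and Yme1l1 also highest at ZT0, and this order was not tested.

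A second question was how the onsets of dark and light differ. At ZT12, 3 of the 8 members differed from ZT0 in edgeR's test, beside 15.9% of all genes. Both mitofusins were higher, 2 members beside 7.71% of all genes, and Yme1l1 was lower, 1 member beside 8.15%. Over all genes this is 1196 higher and 1263 lower, and with scaling by library size alone 1358 and 930, a scaling under which the same 3 members kept their direction. For Mfn1 the mice of ZT0 had 84.0, 71.2, 75.7 and 82.1 CPM and those of ZT12 had 86.8, 95.5, 98.5 and 84.6 CPM. The groups did not overlap, but the nearest mice, at 84.0 and 84.6 CPM, were almost level. The log2 fold change was 0.22 ± 0.06 (SE, edgeR adjusted p = 0.0171), which is 1.17-fold. For Mfn2 the mice of ZT0 had 371, 296, 395 and 390.1 CPM and those of ZT12 had 492, 441, 429 and 389.6 CPM. Replicate 2 of ZT0 was far below the other 3, and 1 mouse of ZT12 lay below 2 mice of ZT0. The log2 fold change was 0.27 ± 0.08 (SE, edgeR adjusted p = 0.0270), which is 1.21-fold.

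For Yme1l1 the mice of ZT0 had 129.9, 111, 109 and 111 CPM and those of ZT12 had 98.8, 88.7, 99.0 and 96.1 CPM. The groups did not overlap, and replicate 1 of ZT0 stood above the rest. The log2 fold change was -0.27 ± 0.07 (SE, edgeR adjusted p = 0.0108). Dnm1l went the same way, with 129.6, 126, 122 and 119 CPM at ZT0 and 114, 114, 115 and 103 CPM at ZT12. Its mice did not overlap either, yet it did not pass (log2 fold change -0.15 ± 0.07, edgeR adjusted p = 0.106). In all, 3 of the 8 members had no overlap between the mice of ZT12 and ZT0, beside 16.3% of all genes. The other 4, Opa1, Oma1, Fis1 and Mff, had log2 fold changes from -0.11 to -0.02 with SEs of 0.08 to 0.10. The median log2 fold change was -0.05 over the members and 0.0017 over all tested genes.

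Single mice mattered in this contrast. Without replicate 2 of ZT0 the edgeR adjusted p was 0.0800 for Mfn1 and 0.127 for Mfn2, and the log2 fold changes were 0.18 and 0.18. Mfn1 also lost its call without replicate 3 of ZT0 (0.0521), replicate 2 of ZT12 (0.0586) or replicate 3 of ZT12 (0.0797), and Mfn2 without replicate 1 of ZT12 (0.101) or replicate 2 of ZT12 (0.0560). Yme1l1 lost its call without replicate 1 of ZT0 (0.0635). Without the libraries high in muscle markers, which leaves 2 mice at ZT0 and 2 at ZT12, none of the 3 passed (edgeR adjusted p = 0.531 for Mfn1, 0.153 for Mfn2 and 0.184 for Yme1l1), and 2.28% of all genes did. The log2 fold changes were then 0.15, 0.41 and -0.30. With the muscle marker level as a covariate all 3 passed (0.0213, 0.0309 and 0.0121). In the 8 libraries of the contrast alone none of the 3 passed (edgeR adjusted p = 0.117 for Mfn1, 0.158 for Mfn2 and 0.0804 for Yme1l1), and 8.74% of all genes did. Without a filter on counts neither mitofusin passed (0.0702 and 0.0793), beside 5.78% of all genes.

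**Figure D3:**
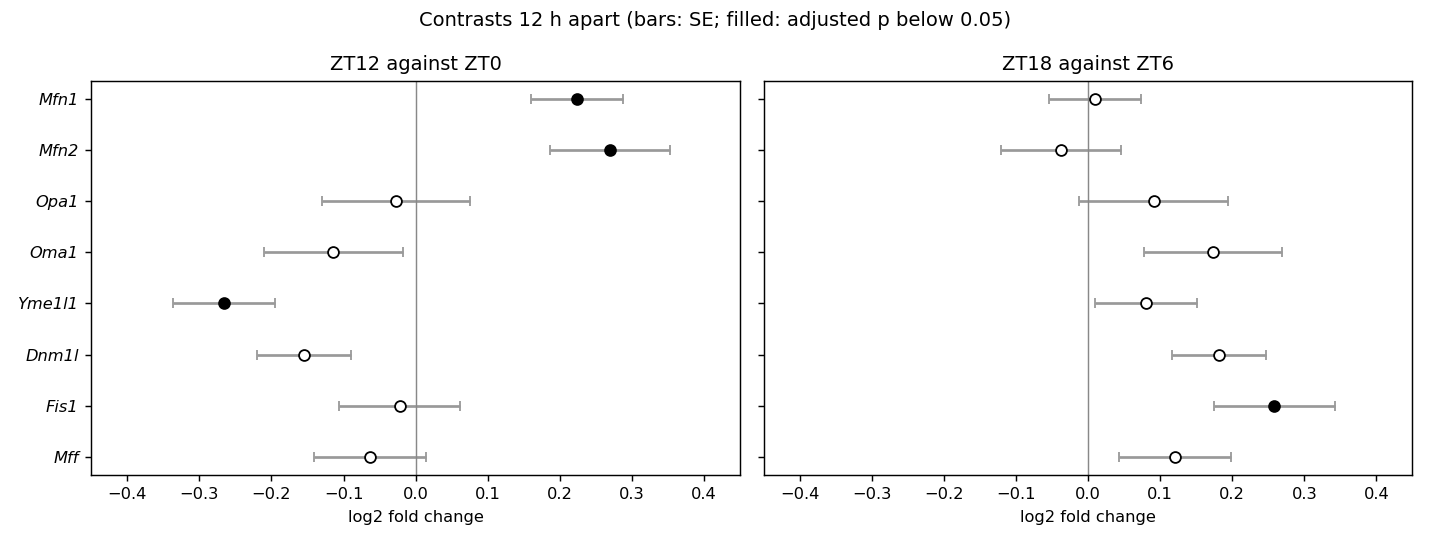
Log2 fold change of ZT12 against ZT0 (left) and ZT18 against ZT6 (right) for the 8 genes, with SE bars; filled points passed edgeR's test at an adjusted p under 0.05. Mfn1 and Mfn2 lie at 0.22 and 0.27 and Yme1l1 at -0.27 on the left, and Fis1 at 0.26 on the right.

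Between the middle of the dark phase (ZT18) and the middle of the light phase (ZT6), Fis1 differed, 1 of 8 members beside 16.9% of all genes. It was higher at ZT18, as were 8.18% of all genes, and 0 members were lower beside 8.68%, also at an unadjusted p under 0.05 and in DESeq2. The mice of ZT6 had 27.3, 29.7, 29.1 and 31.6 CPM and those of ZT18 had 34.9, 37.3, 36.9 and 31.8 CPM. These did not overlap, though the nearest mice were almost level, and Fis1 was 1 of 8 members without overlap beside 22.9% of all genes. The log2 fold change of Fis1 was 0.26 ± 0.08 (SE, edgeR adjusted p = 0.0346). Its call was lost without any of replicates 1, 2 or 3 of either time point, with edgeR adjusted p from 0.0626 to 0.113, and without the libraries high in muscle markers (0.138, with 7.34% of all genes called). Other measures moved with this contrast. The 5 markers of white fat and lymph node summed to 42.5 to 68.5 CPM at ZT6 and 140.02 to 226 CPM at ZT18. They include Lep, which the paper lists among the oscillating iBAT genes of largest relative amplitude in its cluster. The sum was not split by gene. Mitochondrially encoded genes held 22.6 to 27.9% of the counts at ZT6 and 18.5 to 20.7% at ZT18. Neither overlapped between the times. With the mitochondrially encoded genes left out, the log2 fold change of Fis1 was 0.26 (edgeR adjusted p = 0.0364). That fit concerns the scaling alone. The parts of mitochondrial content and of the white fat and lymph node markers in this result were not tested.

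Dnm1l had 114, 117, 99.0 and 94.5 CPM at ZT6 and 121, 129, 116 and 115 CPM at ZT18, which overlap. Its log2 fold change was 0.18 ± 0.07 (SE, edgeR adjusted p = 0.0547), and the call was gained without replicate 1 or 2 of ZT6 (0.0406 and 0.0238). With the replicate number as a block the adjusted p of Dnm1l was 0.0458, although these numbers do not pair the mice. The mitofusins, which differed between ZT12 and ZT0, had log2 fold changes of 0.01 ± 0.06 (Mfn1) and -0.04 ± 0.08 (Mfn2) here. Yme1l1 stood at 0.08 ± 0.07, and the median over the members was 0.11, beside 0.00097 over all tested genes.

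Both contrasts join libraries of different lanes. Within lanes, where time points can be compared on the same lane, 0 of the 8 members passed. On lane 2 (ZT0, ZT3 and ZT6) the lowest edgeR adjusted p was 0.0943, for Dnm1l, and 2 members, Dnm1l and Fis1, had an unadjusted p under 0.05. Of all genes, 13.3% passed the adjusted threshold and 32.2% the unadjusted one. DESeq2 called 1 member there, Dnm1l (adjusted p = 0.0376), beside 20.1% of all genes, and without replicate 4 of ZT0 edgeR called Fis1 (adjusted p = 0.0170). On lane 3 (ZT9, ZT12 and ZT15) the lowest edgeR adjusted p was 0.510 and no member had an unadjusted p under 0.05, beside 1.93% of all genes called and 16% at an unadjusted p under 0.05. On lane 4 (ZT18 and ZT21) the lowest was 0.378, again with 0 members at an unadjusted p under 0.05, beside 4.48% called and 20.7% at that unadjusted threshold. DESeq2 called 0 members on lanes 3 and 4, beside 5.58% and 6.88% of all genes.

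With lane as an additive term, edgeR's cosine passed in 0 of the 8 members, beside 17.2% of all genes. At an unadjusted p under 0.05 there were 2 members, Oma1 and Dnm1l, beside 30.6% of all genes, and DESeq2 called 0, beside 19.5%. The lowest edgeR adjusted p was 0.103, for Oma1, which passed without replicate 1 of ZT9 (0.0474). Amplitudes beside lane were 0.10 ± 0.04 for Yme1l1 (peak ZT21.8 ± 1.95 h), 0.15 ± 0.05 for Oma1 (ZT19.9 ± 1.98 h), 0.14 ± 0.05 for Dnm1l (ZT23.0 ± 1.23 h) and 0.09 ± 0.05 for Mfn1 (SE), whose fitted peaks moved by little. The peak of Mff was ZT20.7 ± 3.94 h (ZT18.7 without lane). The other 3 had fitted peaks elsewhere than without lane: Mfn2 at ZT7.18 in place of ZT11.8, Fis1 at ZT22.4 ± 2.02 h in place of ZT17.9 and Opa1 at ZT0.880 ± 2.21 h in place of ZT20.1. Their amplitudes beside lane were 0.09 ± 0.04, 0.12 ± 0.06 and 0.10 ± 0.09. The SEs of these amplitudes were larger than without lane for all 8 members. For the time course of Yme1l1, the 3 means of lane 3 (95.7 to 102 CPM) all lay below those of lanes 2 and 4 (105 to 115 CPM), so its fall at ZT9 to ZT15 coincides with a lane. The same holds for the high of Mfn1, whose lane 3 means (88.6 to 91.4 CPM) lay above those of lane 2 (78.2 to 86.2 CPM) and lane 4 (84.6 to 86.8 CPM).

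A ratio of 2 genes within a library does not depend on the scaling between libraries, and 3 ratios of counts were examined for partners in the pathway. They are ratios of reads, not of molecules, since gene lengths differ. The Mfn2 to Mfn1 ratio stayed between 4.48 ± 0.407 at ZT15 and 4.90 ± 0.333 at ZT21 (SD, n = 4). It did not differ between time points beyond the spread over mice (permutation test with 100000 resamples over 32 mice, F = 0.606, p = 0.747, BH-adjusted p over the 3 ratios = 0.747). The Oma1 to Yme1l1 ratio had its lowest mean at ZT3 (0.101 ± 0.0101) and its highest at ZT15 (0.126 ± 0.0174), and the difference did not pass (permutation test, F = 1.95, p = 0.103, adjusted p = 0.216). The Dnm1l to Opa1 ratio, which sets the division GTPase against the inner membrane fusion GTPase, ran from 0.411 ± 0.0180 at ZT21 to 0.472 ± 0.0167 at ZT3 (permutation test, F = 1.73, p = 0.144, adjusted p = 0.216).

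Within lanes, none of the 3 ratios passed after adjustment. The lowest was Dnm1l to Opa1 on lane 4, where the 4 mice of ZT18 (0.442 ± 0.00604) all lay above the 4 of ZT21 (0.411 ± 0.0180; SD). The exact permutation test, two-sided, gave p = 0.0286, the smallest value that 4 against 4 mice can give, and an adjusted p of 0.0857. A ratio that alone reaches this floor cannot pass after adjustment over the 3 ratios. No conclusion is therefore drawn from the adjusted result on lane 4.

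**Figure D4:**
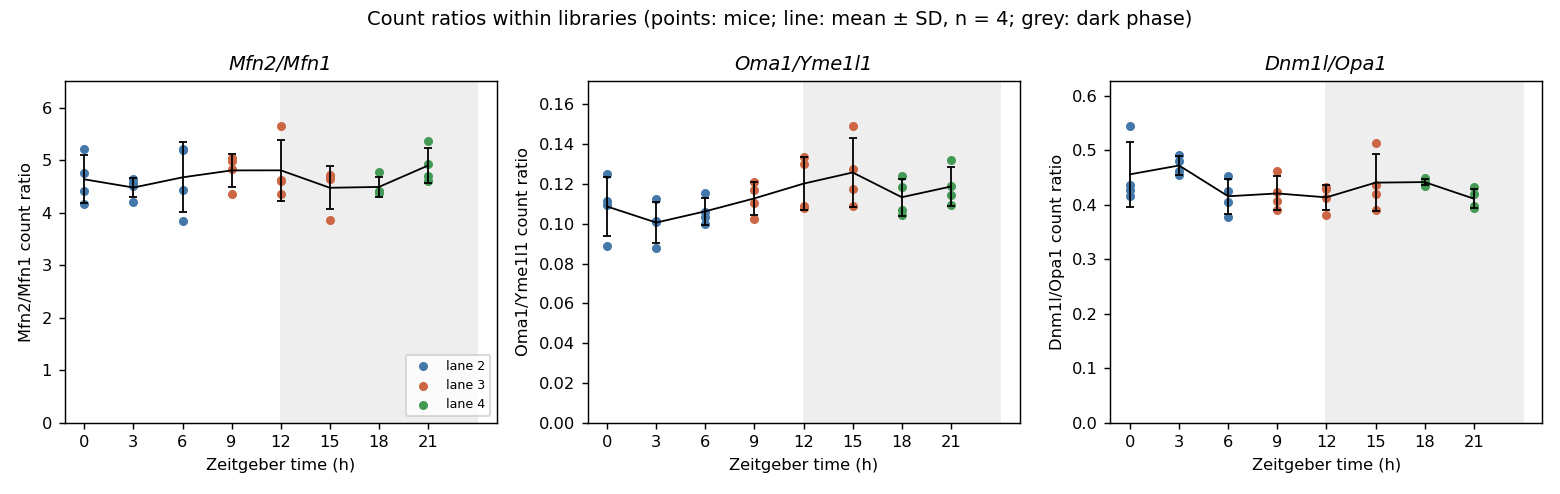
Count ratios Mfn2/Mfn1, Oma1/Yme1l1 and Dnm1l/Opa1 (vertical axes from 0) against Zeitgeber time in h; points are mice coloured by lane, the line joins means ± SD (n = 4) and grey is the dark phase. The Mfn2/Mfn1 means stay between 4.48 and 4.90, and in each panel at least 1 time point has mice spread more widely than the range of the means.

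The members did not vary as a single block. Over the 32 libraries, on log2 CPM, Yme1l1 and Dnm1l had the highest correlation of the 28 pairs (r = 0.67), then Fis1 and Mff (r = 0.67) and Mfn2 and Opa1 (r = 0.61). Mfn1 and Mfn2 had r = 0.43, while Mfn1 was opposed to Yme1l1 (r = -0.48) and to Dnm1l (r = -0.41). On deviations from the time-point means, Mfn2 and Opa1 had r = 0.81, Opa1 and Yme1l1 stood at 0.70, Opa1 and Dnm1l at 0.68 and Yme1l1 and Dnm1l at 0.67. Mfn1 and Mfn2 then had r = 0.16, Mfn1 and Yme1l1 -0.17 and Mfn1 and Dnm1l -0.26. Within time points the opposition of Mfn1 was thus weaker, more so to Yme1l1 than to Dnm1l. These correlations are descriptions; the values share libraries and scaling.

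Among 10300 tested genes with a mean of at least 5 CPM, the 2 genes most like each member other than Dnm1l over the 32 libraries were as follows. Opa1 was closest to Immt (r = 0.90), the mitofilin gene of the cristae complex MICOS, and to Sdha (r = 0.90), a subunit of respiratory complex II. Mff was closest to Mrpl42 and Mpc2 (r = 0.84 each), a mitochondrial ribosomal protein gene and a subunit gene of the mitochondrial pyruvate carrier. Yme1l1 was closest to Scoc and C130074G19Rik (r = 0.85 each), Mfn2 to Tsc2 (r = 0.84) and Pdpr (r = 0.80), and Oma1 to Mpdz (r = 0.82) and Lrrc39 (r = 0.72). Fis1 was closest to Lamtor1 and Bsg (r = 0.77 each), and Mfn1 to Ano6 (r = 0.72) and Polg (r = 0.71), the last encoding the polymerase of mitochondrial DNA.

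Other genes of mitochondrial shape were taken from 3 lists with 35 genes, of which 33 were tested. Gdap1 and Mtfr2 of the fission list did not pass the filter. In edgeR's cosine test 11 of the 33 passed, beside the 36.1% of all genes given above: 4 of 12 further fusion genes, 7 of 13 fission genes and 0 of 8 genes of MICOS and its partners, which shape the cristae. In the MICOS list the lowest adjusted p was 0.0602 (Chchd3, named here after its values were seen). At an unadjusted p under 0.05, 1 gene of that list passed in edgeR, beside 46.8% of all genes, and DESeq2 called 0, beside 38.1%. Median amplitudes were 0.08, 0.10 and 0.06 in these lists. Of the 11 that passed, 9 had fitted peaks in the dark phase and 2 in the light phase, in the fit without lane. Mtfr1l, at ZT12.2 ± 0.655 h (SE), lay at the boundary. The share of all passing genes with a peak in the dark phase was not computed. The count therefore cannot be read as particular to these genes.

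Some of these accessory genes had larger swings than the core genes, but those named below were picked as the largest of the fusion and fission lists. The median amplitude was 0.08 over the 33 genes and 0.08 over the members. Pld6, an outer membrane phospholipase that promotes fusion, had an amplitude of 0.51 ± 0.09 (log2, SE) with a peak at ZT8.86 (edgeR adjusted p = 8.09e-05), from 2.23 ± 0.577 CPM at ZT18 to 5.34 ± 1.38 at ZT9 (SD, n = 4). Miga2, a mitoguardin of the outer membrane that acts with that phospholipase, peaked at ZT13.1 with an amplitude of 0.18 ± 0.04 (adjusted p = 0.00292), from 187 ± 7.03 CPM at ZT3 to 271 ± 4.90 at ZT12. Opa3, a gene mutated in a form of optic atrophy, went from 36.2 ± 3.26 CPM at ZT6 to 69.1 ± 12.1 at ZT0 (amplitude 0.30 ± 0.07, adjusted p = 0.00180).

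On the fission list, Spire1, an actin nucleator with a mitochondrial isoform, had an amplitude of 0.35 ± 0.08 and a peak at ZT22.0 (edgeR adjusted p = 0.00301). Its means ran from 39.3 ± 11.5 CPM at ZT9 to 63.5 ± 6.47 at ZT21. Akap1, which anchors protein kinase A to the outer membrane, where that kinase phosphorylates DRP1, peaked at ZT1.97 with an amplitude of 0.25 ± 0.06 (adjusted p = 0.00216), from 446 ± 46.6 CPM at ZT3 to 269.9 ± 50.9 at ZT15. Its place on the fission list gives no direction of its effect on fission. Mtfr1l, a relative of the fission regulator MTFR1, peaked at ZT12.2 with an amplitude of 0.14 ± 0.02 (adjusted p = 0.000274). Each of these 6 genes passed in all 32 fits that left out 1 mouse, with adjusted p up to 0.00696. Without the libraries high in muscle markers Akap1 did not pass (adjusted p = 0.0972). Beside lane, 2 of the 33 passed edgeR's cosine test, where 17.2% of all genes did: Opa3 (adjusted p = 6.99e-05) and Usp30 (adjusted p = 0.00416), a mitochondrial deubiquitinase named here after its values were seen.

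**Figure D5:**
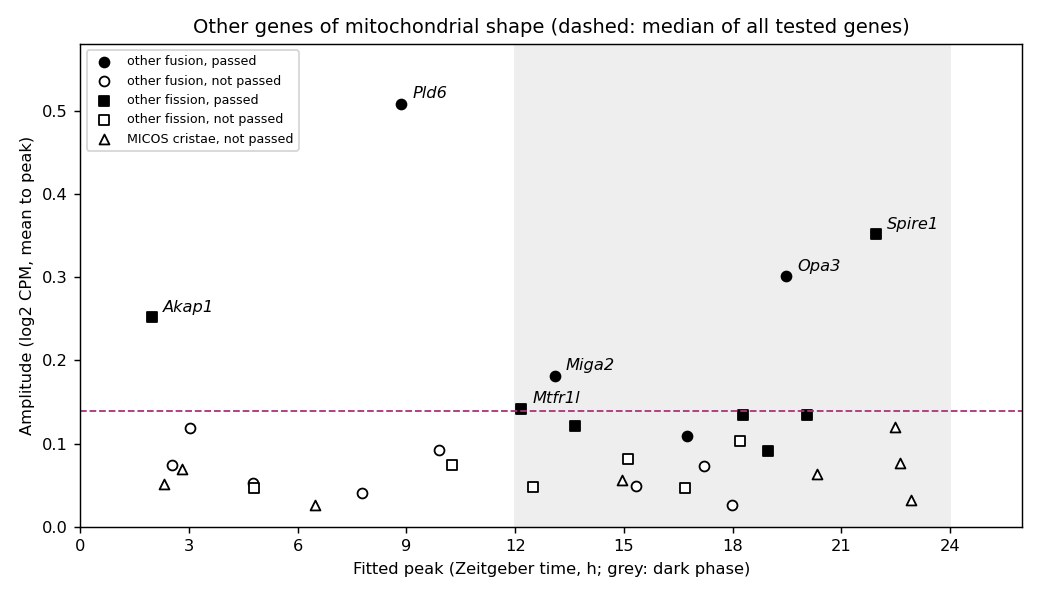
Amplitude of the 24 h cosine (log2 CPM, mean to peak) against fitted peak in Zeitgeber time (h) for 33 further genes of mitochondrial shape; symbols give the list, filled symbols passed edgeR's cosine test and grey is the dark phase. Pld6 (0.51), Spire1 (0.35) and Opa3 (0.30) lie highest above the dashed median of all tested genes (0.14), and no MICOS gene is filled.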

How the data were processed

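RNA-seq counts of iBAT from 32 mice were analysed. Per the file headers and the study's methods, the authors mapped 100 bp paired-end reads with GSNAP to mm10 and deposited raw counts per Ensembl gene from HTSeq-count (0.6.1), without normalization. The strand setting of the counting is not given in the sources used here. Symbols, coordinates and exons came from GENCODE on GRCm38, another release than the authors counted with.

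Tests ran over all 15505 genes left by filterByExpr with the time point as group (99.9% of counts; 14486 to 14866 genes within lanes), in edgeR 4.0.16 (R 4.3.3) with TMM scaling, glmQLFTest and BH adjustment at 0.05, and in an own JTK_CYCLE (15 templates, 21 and 24 h, P under 0.05). Contrasts used the spread of all 32 libraries. Amplitudes come from log2 CPM (prior count 2). Ratios had 0.5 added to each count. Groups came from the sample labels. Replicate numbers did not pair the mice: deviations of same-numbered libraries correlated at a median of -0.12. No pair of libraries from a time point was as alike as counting noise alone allows. The scripts were tested on simulated data. P-values measure the spread between mice.

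The members, the gene lists and the tests were chosen with earlier results of these data known. Named are all members; of each list of other genes, the 3 with the largest amplitude among those past the cosine test and any gene not tested; the 2 genes most like each member (those of Dnm1l are not reported here); Ucp1 and 5 clock genes as label checks. Chchd3 and Usp30 fall outside this rule and were named after their values were seen. Lep is named as a marker that the paper lists as oscillating. Alternatives were DESeq2 1.42.0, other scalings and filters, the replicate number as a block, each library left out and, chosen after seeing the data, the muscle marker level as a covariate and omission of the 15 libraries high in muscle markers. Of 6 marker lists the summed CPM per library was 11312 to 16396 for brown adipocytes, 2.39 to 6258 for skeletal muscle, 262 to 1213 for blood, 27.6 to 210.5 for leukocytes, 939 to 1632 for endothelial and mural cells and 42.5 to 353 for white fat and lymph node; the part of these cells in the results was not tested, apart from muscle.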

Additional observations from a re-analysis of the deposited data

Results flagged for a closer look

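In groups of 4 mice, a value was noted where its gap to the nearest other mouse exceeded 0.829 of the range of the group (Dixon's limit). Of 88 groups, 6 held such a value, and chance alone gives about 1 in 20. Yme1l1 in ZT0 replicate 1 stood at 129.9 CPM, above the 109 to 111 CPM of the other mice, and it is the mouse without which the contrast of ZT12 against ZT0 lost its call. Dnm1l in ZT12 replicate 4 was 103 CPM, below 114 to 115 CPM in the others. Mff in ZT21 replicate 2 was 95.2 CPM, above 88.8 to 89.5 CPM. The Mfn2 to Mfn1 count ratio was 3.87 in ZT15 replicate 1, the library with the highest summed muscle markers (6258 CPM), against 4.65 to 4.72 in the other 3. The same ratio was 4.79 in ZT18 replicate 2, against 4.38 to 4.42. The Dnm1l to Opa1 ratio was 0.545 in ZT0 replicate 2, against 0.416 to 0.435. The part of muscle RNA in the Mfn2 to Mfn1 ratio was not tested.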

How the results depend on the processing

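The 4 members that passed the cosine test became 2 without a filter (15.7% of all genes) and 2 without the libraries high in muscle markers (17.8%), and ran from 2 to 5 when each mouse was left out. JTK called 1 of 8 at BH under 0.05 (27.1% of all genes) and 1 at P under 0.01 (25.4%). The 3 that differed between ZT12 and ZT0 became 1 without a filter (5.78% of all genes), 0 in the 8 libraries alone (8.74%), 0 against a 1.5-fold change (0.871%) and 0 without the libraries high in muscle markers (2.28%), and 1 to 3 with each mouse left out. The 1 that differed between ZT18 and ZT6 became 2 with library size alone (15.1%), 2 in DESeq2 (17.4%), 0 without a filter (6.09%), 0 against a 1.5-fold change (0.568%) and 0 without the muscle libraries (7.34%), and 0 to 1 with each mouse left out. Any difference between time points was called in 3 members with library size alone (35.1%), 2 in DESeq2 (45.2%) and 0 without the muscle libraries (9.64%), and in 1 to 2 with each mouse left out, against 1. Within lane 2 the count of 0 became 1 in DESeq2 and 0 to 1 with each mouse left out, and beside lane 0 to 1. With the replicate block, 2 members differed between ZT18 and ZT6 (16.4% of all genes) and 2 between any time points (38.4%), Dnm1l being the one gained in both. The block changed the call of no other member in the cosine, lane and contrast fits, and the numbers do not pair the mice. The other shaping genes that passed, and the 3 ratios, stayed within 1.5 times of their count or on their side of the threshold in all alternatives run. The cause of these changes was not tested. In the 8 libraries alone and without the muscle libraries fewer mice enter. Among values of single members in the cosine fits, with and without lane, and in the contrasts, 10 gained a call, 51 lost one and none that was called changed direction. Calls in JTK, on any difference between time points and within lanes also changed and are not in these counts. Log2 fold changes that passed no test changed sign in some settings: Opa1 and Fis1 between ZT12 and ZT0 in 4 of 43 each, and Mfn1 between ZT18 and ZT6 in 5 of 43. Oma1, with 162 to 268 counts per library, had the least depth of the members and so the largest counting error.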
